A study of Rattus norvegicus with 11 samples.

Results

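Rat genes that act against oxidative stress or on protein folding in the endoplasmic reticulum (ER) were followed through the spinal cord libraries, 5 in all: Hmox1 (ENSRNOG00000014117), Sod1 (ENSRNOG00000002115), Sod2 (ENSRNOG00000019048), Cat (ENSRNOG00000008364) and Hspa5 (ENSRNOG00000018294). They were picked by Ensembl ID for their known roles, as 5 of the 32623 gene IDs counted. Earlier results of these data were known when they were chosen, so the share of them that changed is a description only. Each had at least 173 counts in every library, and all 5 were among the 15758 IDs that passed the filter on low counts. The count table holds IDs only, and the 47357 rows of the RefSeq gene table used here carry 0 rat Ensembl IDs, so the pairing of these 5 IDs with their names was not checked against a gene table.

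The RNA came from ipsilateral spinal cord of adult male rats of 350 to 400 g. The stimulated group (SCS, 3 libraries) received the chemotherapy drug paclitaxel, carried an electrode for spinal cord stimulation and was stimulated at 50 Hz with 0.2 ms pulses at 80% of the labels' MoT. The sham group (5 libraries) had paclitaxel and an electrode without stimulation, and the naive group (3 libraries) had neither, so drug and electrode cannot be told apart in any comparison with naive rats. Paclitaxel was injected into the peritoneum on days 1, 3, 5 and 7, at a dose of 1.5 mg/kg. The sample titles carry S in the stimulated and X in the sham group. S could also be read as sham, which would turn each direction between SCS and sham libraries round. It would also exchange the results of SCS against naive and of sham against naive libraries. The group label is followed throughout. Libraries are named by group and by the replicate number in the sample title (SCS 1, SCS 2 and SCS 5, sham 1 to 5, naive 1 to 3). Whether every library stands for its own animal is not stated, and p-values therefore cover the variation among these samples only. Library totals were 18633243 to 29395233 counts for SCS, 11243288 to 22144967 for sham and 17401720 to 56775931 for naive. The spread between libraries of a group over all genes, as the biological coefficient of variation, was 14.4% in SCS, 11.04% in sham and 6.96% in naive libraries. The tissue label was not checked against cell type markers, because no other ID could be given a symbol.

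Superoxide that leaks from respiration is turned into hydrogen peroxide by the superoxide dismutases, Sod1 in the cytosol and Sod2 in the mitochondrial matrix, and catalase (Cat), a peroxisomal enzyme, breaks hydrogen peroxide down to water and oxygen. Hmox1 encodes heme oxygenase 1, the inducible enzyme that splits heme into biliverdin, carbon monoxide and iron; it is a classic target of the transcription factor Nrf2 and in injured nervous tissue is known from microglia, macrophages and astrocytes. Hspa5 encodes BiP, the main Hsp70 chaperone of the ER, which binds unfolded proteins and holds the sensors of the unfolded protein response inactive. Oxidative stress is among the proposed causes of neuropathy after paclitaxel. In bulk tissue a change in the number of cells that express a gene cannot be told apart from a change in RNA per cell.

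RefSeq promoters on the rat build GRCr8 (250 bases before to 50 bases after the gene start) were at hand for 4 of the 5 genes, Sod1, Sod2, Cat and Hspa5. The promoters of Hspa5 and Sod2 are shown because they hold the matches to the 3 stress elements searched on both strands; capitals mark the match.
Hspa5, chr3:38452766-38453065, plus strand: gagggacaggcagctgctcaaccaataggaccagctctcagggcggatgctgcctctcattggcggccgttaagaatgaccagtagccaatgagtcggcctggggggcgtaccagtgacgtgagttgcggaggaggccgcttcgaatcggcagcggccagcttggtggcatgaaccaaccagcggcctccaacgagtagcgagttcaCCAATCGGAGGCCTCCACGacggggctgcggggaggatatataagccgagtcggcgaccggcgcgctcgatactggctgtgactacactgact
Sod2, chr1:50050119-50050418, minus strand: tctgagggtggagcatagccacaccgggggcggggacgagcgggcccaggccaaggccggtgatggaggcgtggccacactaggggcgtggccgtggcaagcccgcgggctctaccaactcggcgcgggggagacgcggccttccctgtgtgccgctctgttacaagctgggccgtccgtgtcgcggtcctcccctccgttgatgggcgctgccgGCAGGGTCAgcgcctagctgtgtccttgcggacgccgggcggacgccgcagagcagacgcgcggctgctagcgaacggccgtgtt
The ER stress response element, CCAAT and CCACG with 9 bases of any kind between them, matched the Hspa5 promoter at 1 place, bases -43 to -25 counted from the gene start. It matched 22 of 33469 promoters of the same length, or 0.0657%. The core of the antioxidant response element, TGACNNNGC with N for any base, matched the Sod2 promoter at 1 place on the opposite strand, bases -35 to -27, and 12.1% of all promoters hold it. The unfolded protein response element was searched only in the form TGACGTGG, which 0.595% of promoters hold, and this form matched none of the 4. The Hspa5 promoter holds TGACGTGA, which differs in the last base and was not searched for. The GC box GGGCGG, held by 33.1%, matched at 2 places in Sod2 and at 1 each in Sod1 and Hspa5, and had no match in Cat; none of its matches overlapped the others. These matches describe letters within 300 bases and no binding was measured.

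Across the libraries, Hmox1 and Hspa5 were highest in the SCS group, and Cat averaged highest in SCS and lowest in naive libraries. Sod1 averaged lowest in SCS libraries and Sod2 in sham libraries. Levels are given as counts scaled to a common library total of 1000000 (CPM), which are not comparable between genes of different length. Fold changes and adjusted p-values come from edgeR's quasi-likelihood test over all 15758 genes with Benjamini-Hochberg adjustment, and a gene was called changed at an adjusted p under 0.05.

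**Figure D1:**
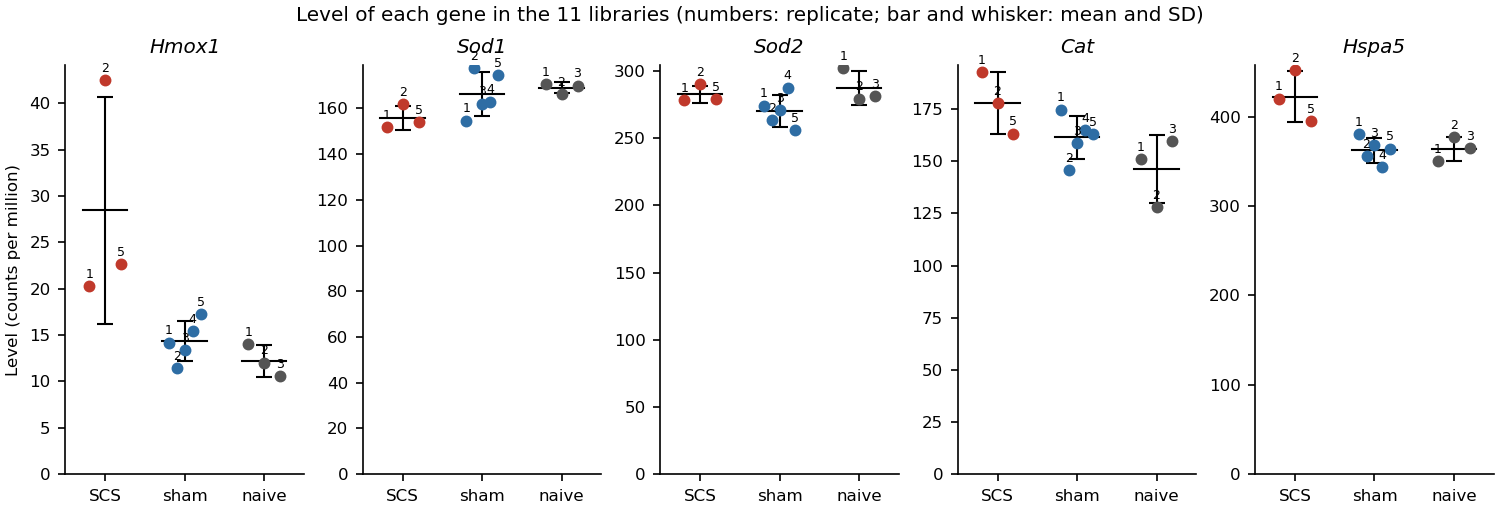
Level of each gene in CPM (vertical axes, each starting at 0) in the SCS, sham and naive libraries; numbers are replicate numbers, the bar is the mean and the whisker the SD. All 3 SCS libraries lie above all sham and naive libraries for Hmox1 and Hspa5, and SCS 2 stands highest in both.

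Hmox1, the inducible heme oxygenase, had 20.2, 42.5 and 22.6 CPM in SCS 1, SCS 2 and SCS 5, against 14.2, 11.4, 13.4, 15.4 and 17.2 CPM in sham 1 to 5, and 14.0, 12.04 and 10.6 CPM in naive 1 to 3. Every SCS library lay above every sham and naive library, SCS 2 stood far above the other SCS libraries, and sham and naive libraries overlapped. The means were 28.5 ± 12.2 CPM in SCS libraries (SD, n = 3), 14.3 ± 2.17 CPM in sham libraries (SD, n = 5) and 12.2 ± 1.73 CPM in naive libraries (SD, n = 3). The SD was 42.9% of the mean in SCS libraries, 15.2% in sham and 14.2% in naive libraries. With 173 to 794 counts per library, counting error alone comes to 3.55% to 7.60% of a value, below the spread in each group.

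Hspa5, the ER chaperone BiP, had 420.0, 452 and 395 CPM in SCS 1, SCS 2 and SCS 5, against 380.3, 356, 368, 343 and 364 CPM in sham 1 to 5, and 350.0, 377 and 365 CPM in naive 1 to 3. The SCS libraries again lay above all others without overlap, with SCS 2 highest, while sham and naive libraries were interleaved. The means were 422 ± 28.7 CPM in SCS libraries (SD, n = 3), 362 ± 13.8 CPM in sham libraries (SD, n = 5) and 364 ± 13.4 CPM in naive libraries (SD, n = 3).

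Cat, the peroxisomal catalase, had 193, 178 and 163 CPM in SCS 1, SCS 2 and SCS 5, against 175, 146, 159, 165 and 163 CPM in sham 1 to 5, and 151, 128 and 159.6 CPM in naive 1 to 3. The SCS and naive libraries did not overlap, and the sham libraries overlapped with each of them. The means were 178 ± 14.8 CPM in SCS libraries (SD, n = 3), 161 ± 10.5 CPM in sham libraries (SD, n = 5) and 146 ± 16.3 CPM in naive libraries (SD, n = 3), and the differences between neighbouring groups in this order did not pass the test.

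Sod1, the cytosolic superoxide dismutase, had 152, 162 and 154 CPM in SCS 1, SCS 2 and SCS 5, against 155, 178, 162, 163 and 175 CPM in sham 1 to 5, and 171, 166 and 169.9 CPM in naive 1 to 3. Its SCS libraries lay below all naive libraries and overlapped with sham, whose libraries spread around the naive ones. The means were 156 ± 5.26 CPM in SCS libraries (SD, n = 3), 166 ± 9.49 CPM in sham libraries (SD, n = 5) and 169 ± 2.35 CPM in naive libraries (SD, n = 3).

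Sod2, the mitochondrial superoxide dismutase, had 278, 290.1 and 279 CPM in SCS 1, SCS 2 and SCS 5, against 274, 263, 271, 287 and 256 CPM in sham 1 to 5, and 302, 279 and 281 CPM in naive 1 to 3. All 3 groups overlapped. The means were 283 ± 6.58 CPM in SCS libraries (SD, n = 3), 270.2 ± 11.9 CPM in sham libraries (SD, n = 5) and 287 ± 12.5 CPM in naive libraries (SD, n = 3). For Sod1, Sod2, Cat and Hspa5 counting error alone was at most 2.34% of a value.

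The comparison of SCS with sham libraries asks what differed with stimulation, since drug and electrode were common to these groups. Hmox1 and Hspa5 rose, so 2 of the 5 genes changed, where 3.57% of all tested genes did. Hmox1 rose by 0.98 ± 0.23 on the log2 scale (SE, edgeR adjusted p = 0.0462), a 1.97-fold difference with a 95% interval of 1.38 to 2.80. Hspa5 rose by 0.22 ± 0.056 on the log2 scale (SE, edgeR adjusted p = 0.0443), a 1.17-fold difference with an interval of 1.07 to 1.27. These 2 genes were also the members whose SCS and sham libraries did not overlap, as was the case for 10.2% of all tested genes. In a two-sided exact permutation test of each gene's log2 CPM each reached p = 0.0179, the smallest that 3 against 5 libraries allow. That p largely restates the lack of overlap and was not adjusted for the number of genes. The antioxidant enzymes Cat, Sod2 and Sod1 did not pass. Cat was at 1.10-fold (interval 0.984 to 1.24, edgeR adjusted p = 0.324), Sod2 at 1.046-fold (0.968 to 1.13, adjusted p = 0.537) and Sod1 at 0.937-fold (0.864 to 1.02, adjusted p = 0.355). The median log2 fold change of the 5 genes was 0.14, against -0.013 over all tested genes.

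Both calls were close to the threshold. The call of Hmox1 was lost without SCS 2 (1.50-fold, log2 fold change 0.58, edgeR adjusted p = 0.0974), without sham 1, sham 2, sham 3 or sham 4 (adjusted p 0.105, 0.106, 0.098 and 0.0713), without naive 1, naive 2 or naive 3 (0.0614, 0.0707 and 0.0688), which enter the shared estimate of spread, with no filter on low counts (0.0784) and in the fit of SCS and sham libraries only (0.107). That of Hspa5 was lost without SCS 1 or SCS 2 (adjusted p 0.0576 and 0.203), without sham 1, sham 2, sham 3 or sham 4 (0.0637, 0.094, 0.0755 and 0.0705), without naive 1, naive 2 or naive 3 (0.0512, 0.0531 and 0.0663) and in the fit of SCS and sham libraries only (0.0977). An adjusted p also depends on the other genes of the fit. Without SCS 2, 36 genes passed, against 563 with all libraries, and the unadjusted edgeR p of Hmox1 was 0.000873, against 0.00154. For Hspa5 it was 0.00118 without naive 1, 0.00128 without naive 2 and 0.000955 without sham 1, against 0.00136. In these fits 362, 369 and 175 genes passed. In the other fits that lost a call, the unadjusted p was higher than with all libraries. With DESeq2 the adjusted p was 0.000251 for Hmox1 and 0.00241 for Hspa5, and over 19 alternative fits it ranged from 0.000251 to 0.227 and from 0.00241 to 0.203, with a positive fold change in all 19 for each gene.

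**Figure D2:**
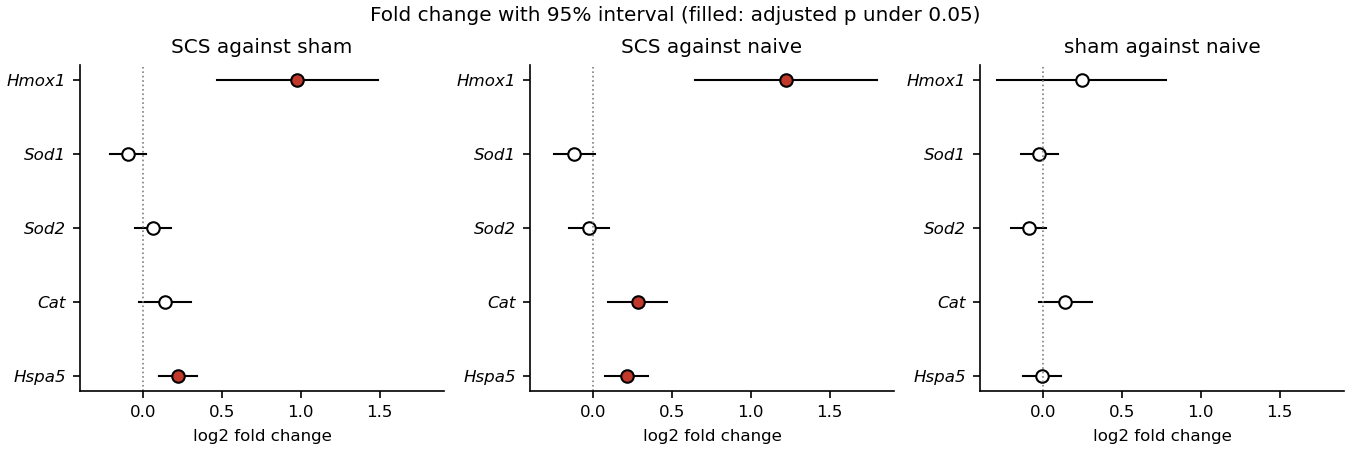
Log2 fold change of each gene (horizontal axes) with its 95% interval in SCS against sham, SCS against naive and sham against naive libraries; filled points have an edgeR adjusted p under 0.05. Hmox1 and Hspa5 are filled in both comparisons of the SCS libraries, Cat in SCS against naive libraries, and no point is filled in sham against naive libraries.

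Between SCS and naive libraries the drug, the electrode and the stimulation all changed at once. Hmox1, Cat and Hspa5 rose, 3 of the 5 genes, where 14.9% of all tested genes changed. The log2 fold change of Hmox1 was 1.22 ± 0.26 (SE, edgeR adjusted p = 0.0124), or 2.34-fold with an interval of 1.57 to 3.49. That of Cat was 0.28 ± 0.087 (SE, edgeR adjusted p = 0.0405), or 1.22-fold with an interval of 1.07 to 1.38. That of Hspa5 was 0.21 ± 0.063 (SE, edgeR adjusted p = 0.0347), or 1.16-fold with an interval of 1.06 to 1.27. The superoxide dismutases did not pass, with Sod1 at 0.922-fold (interval 0.843 to 1.01, edgeR adjusted p = 0.217) and Sod2 at 0.983-fold (0.902 to 1.07, adjusted p = 0.825). The SCS and naive libraries did not overlap for 4 of the 5 genes, Hmox1, Cat and Hspa5 being higher and Sod1 lower in SCS, but 36.3% of all tested genes did not overlap either. The median log2 fold change of the 5 genes was 0.21, against -0.017 over all tested genes.

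Against naive libraries the call of Hmox1 held without SCS 2 (1.79-fold, edgeR adjusted p = 0.00581) and was lost without naive 2 or naive 3 (adjusted p 0.0518 and 0.0579). The call of Cat was lost without SCS 1 or SCS 2 (adjusted p 0.0993 and 0.0898), without naive 1 or naive 2 (0.0714 and 0.162) and without sham 3 (0.0533), and that of Hspa5 without SCS 2 (0.104) and without naive 1, naive 2 or naive 3 (0.109, 0.0575 and 0.0747). In the fit of SCS and naive libraries only, all 3 missed the threshold (0.0595 for Hmox1, 0.0573 for Cat and 0.0526 for Hspa5).

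**Figure D3:**
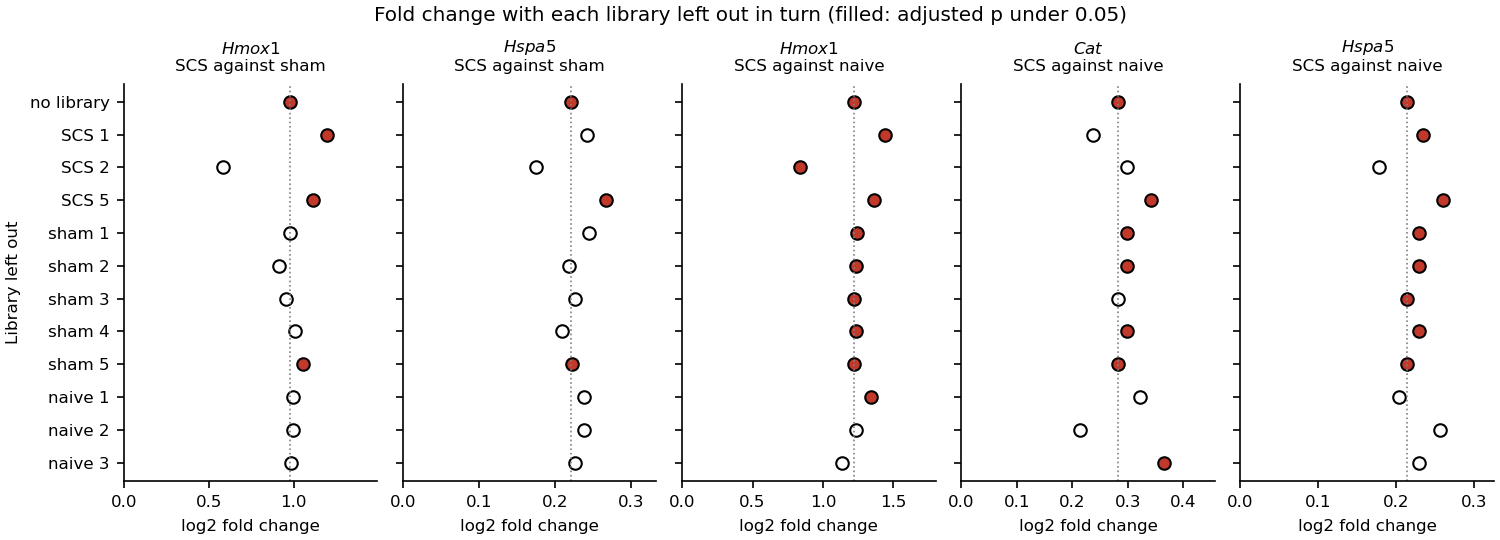
Log2 fold change (horizontal axes) of the called genes with each library named on the vertical axis left out in turn; filled points have an edgeR adjusted p under 0.05 and the dotted line is the value with all libraries. Fold changes stay above 0 throughout; the Hmox1 values fall furthest, to 0.58 and 0.84, when SCS 2 is left out.

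The comparison of sham with naive libraries asks what differed with paclitaxel and the electrode without stimulation. None of the 5 genes changed by the edgeR test, where 0.14% of all tested genes did, and 0 of 5 passed with DESeq2 or with limma-voom. At an unadjusted p under 0.05 the count was also 0 of 5, against 7.98% of all tested genes, and for 0 of 5 did the sham and naive libraries separate, against 7.03%. With all libraries Cat came nearest (unadjusted p 0.0885), and its unadjusted p was 0.0268 without naive 3, 0.0314 without sham 2 and 0.0354 in thinned libraries, with a log2 fold change of 0.22, 0.19 and 0.16, against 0.14 with all libraries and 0.055 without naive 2. Hmox1 was at 1.19-fold in sham libraries, and its interval of 0.817 to 1.72 leaves a sizeable change in either direction possible. That interval uses a spread estimated from all groups, including the SCS libraries, where the SD of Hmox1 was 42.9% of the mean. The unadjusted edgeR p of Hmox1 was 0.333 with all libraries. It was 0.069 without SCS 2 and 0.0799 in the fit of sham and naive libraries only (adjusted p 0.548 and 0.541). The log2 fold change of Hmox1 was positive in all 19 alternative fits. The other 4 genes were bounded more tightly. Cat was at 1.10-fold (interval 0.983 to 1.24, edgeR adjusted p = 0.668), Sod2 at 0.940-fold (0.870 to 1.02, adjusted p = 0.691), Sod1 at 0.985-fold (0.909 to 1.07, adjusted p = 0.941) and Hspa5 at 0.996-fold (0.916 to 1.08, adjusted p = 0.986). The 3 comparisons share libraries, so their values are not independent of each other.

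The ratio of each gene's counts to those of Sod1 in the same library does not depend on how libraries are scaled. For Hspa5 the log2 ratio was 1.44 ± 0.069 in SCS libraries (SD, n = 3), 1.12 ± 0.12 in sham libraries (SD, n = 5) and 1.11 ± 0.072 in naive libraries (SD, n = 3), and the lowest SCS library, at 1.36, lay above the highest sham library, at 1.30. For Hmox1 it was -2.53 ± 0.53 in SCS libraries (SD, n = 3), -3.55 ± 0.25 in sham libraries (SD, n = 5) and -3.80 ± 0.20 in naive libraries (SD, n = 3), and SCS again did not overlap with the other groups. For Cat it was 0.19 ± 0.14 in SCS libraries (SD, n = 3), -0.044 ± 0.17 in sham libraries (SD, n = 5) and -0.21 ± 0.15 in naive libraries (SD, n = 3), where SCS overlapped with sham but not with naive libraries. The ratio of Sod2 to Sod1 was 0.86 ± 0.016 in SCS libraries (SD, n = 3), 0.70 ± 0.13 in sham libraries (SD, n = 5) and 0.77 ± 0.050 in naive libraries (SD, n = 3). Here the lowest SCS library, at 0.84, lay little above the highest sham library, at 0.83. Sod1 itself had its lowest mean in SCS libraries, which raises every ratio there: for 11.1% of the other 15757 tested genes all SCS libraries lay above all sham and naive libraries in the ratio to Sod1, and for 0.355% they lay below. As for Cat, all SCS libraries lay above all naive libraries in this ratio for 31.5% of these genes. The ratios were not tested.

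**Figure D4:**
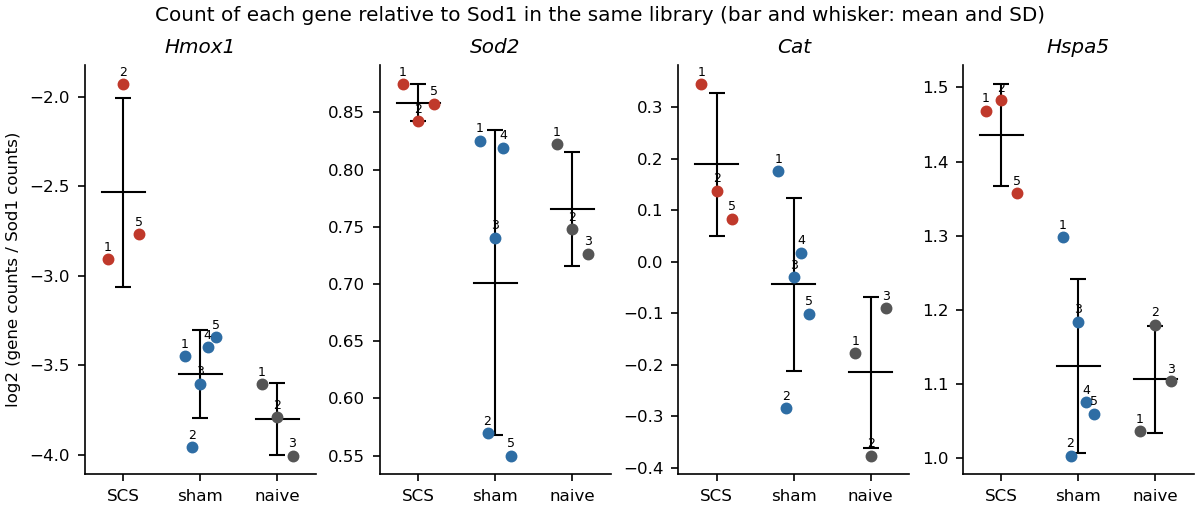
Log2 ratio of each gene's counts to Sod1 counts in the same library (vertical axes) in SCS, sham and naive libraries; the bar is the mean and the whisker the SD. The SCS libraries lie above all sham and naive libraries for Hmox1, Sod2 and Hspa5, and above the naive libraries for Cat.

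Whether the genes varied together was examined in log2 CPM for their 10 pairs. For Hmox1 and Hspa5 the 3 SCS libraries lay apart from the other 8 on both axes. Within the 8 sham and naive libraries Pearson's r was -0.22 (exact permutation p = 0.602, adjusted over 10 pairs 0.839) and Spearman's rho was -0.21 (exact permutation p = 0.619). The 2 genes were thus both high in SCS libraries without a detectable relation in the others. Over all 11 libraries none of the other 9 pairs passed for Pearson's r, in a permutation test with 100000 resamples adjusted over the 10 pairs. The lowest of their adjusted p-values was 0.181, shared by Hmox1 and Cat (r 0.58, rho 0.76), Sod1 and Cat (r -0.61, rho -0.73) and Sod1 and Hspa5 (r -0.57, rho -0.76). By rank these 3 pairs passed (permutation adjusted p 0.0425, 0.0490 and 0.0425), but as deviations from the group means r was 0.076, -0.34 and -0.074, and without the 2 libraries farthest from the median of the first-named gene it was 0.70, -0.38 and -0.41.

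**Figure D5:**
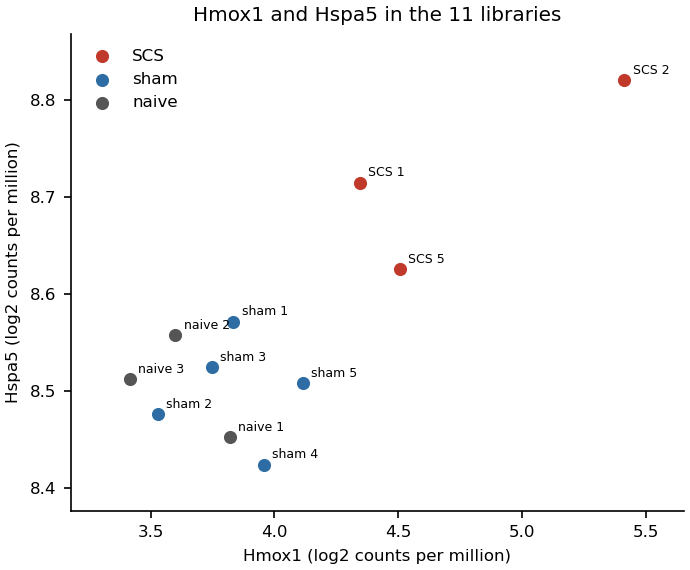
Hspa5 against Hmox1 in log2 CPM, each point a library coloured by group (SCS, sham, naive). The 3 SCS libraries lie to the upper right, with SCS 2 at the far end, and the 8 sham and naive libraries form a cloud with r -0.22.

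Of 14455 other genes with a mean of at least 1 CPM, the one whose log2 CPM followed Hmox1 most closely over the 11 libraries was ENSRNOG00000010331 (Pearson's r 0.98), which had 913 ± 266 CPM in SCS libraries (SD, n = 3), 601 ± 53.6 CPM in sham libraries (SD, n = 5) and 532 ± 10.4 CPM in naive libraries (SD, n = 3). The one nearest to Hspa5 was ENSRNOG00000014201 (r 0.97), which had 43.9 ± 3.89 CPM in SCS libraries (SD, n = 3), 36.3 ± 1.50 CPM in sham libraries (SD, n = 5) and 34.6 ± 1.36 CPM in naive libraries (SD, n = 3). As deviations from the group means r was 0.94 and 0.96 for these 2 pairs. The largest Hmox1 deviation was that of SCS 2, at 0.66 in log2 CPM, and r without SCS 2 was not computed. The highest r was 0.92 for Sod1, 0.92 for Sod2 and 0.93 for Cat. Each is the largest of 14455 values and is given as a description.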

How the data were processed

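The authors deposited whole-number counts per rat Ensembl gene ID. HISAT2, featureCounts and DESeq2 are listed with the rat build rn6, per the submitters' processing notes; no source used here gives their versions, the strand setting, the annotation release or filters, so reads shared with overlapping genes or near-identical copies cannot be assessed. Columns were matched to samples by the title in the column name, while 17 other columns of samples stayed out. Groups follow the group label.

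From the counts, filterByExpr of edgeR 4.0.16 (R 4.3.3) left 15758 genes (48.3% of IDs, at least 99.926% of counts per library). All 11 libraries entered 1 quasi-likelihood fit with TMM scaling, a term per group and two-sided tests (8 residual degrees of freedom). The SE is the log2 fold change divided by the square root of F, intervals are 95% intervals from it, with a prior count of 2 for log2 CPM. Libraries of a group differed by more than sampling noise (chi-square per degree of freedom 4.98 to 27.8). Alternatives used DESeq2 1.42.0 and limma 3.58.1; permutation tests used numpy 2.4.6. The 5 genes and all lists were chosen with earlier results of these data known. Pathway and marker lists could not be counted, since 0 IDs matched a symbol. The naming rule took the 5 genes and the nearest gene to Hmox1 and to Hspa5.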

Additional observations from a re-analysis of the deposited data

How the results depend on the processing

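Without any single library the number of changed genes lay between 36 and 1057 in SCS against sham, between 1018 and 2786 in SCS against naive and between 6 and 56 in sham against naive, where all libraries gave 563, 2342 and 22. Log2 fold changes then ran from 0.58 to 1.195 for Hmox1 and from 0.18 to 0.27 for Hspa5 in SCS against sham. In SCS against naive they ran from 0.84 to 1.44 for Hmox1, from 0.21 to 0.37 for Cat, from 0.18 to 0.26 for Hspa5 and from -0.029 to 0.028 for Sod2. In sham against naive they ran from 0.15 to 0.35 for Hmox1, from -0.041 to 0.013 for Sod1, from -0.109 to -0.053 for Sod2, from 0.055 to 0.22 for Cat and from -0.034 to 0.020 for Hspa5. DESeq2 called 133 genes in sham against naive and 1136 in SCS against sham. The fit of 2 groups only gave 140 in SCS against sham; Hmox1 and Hspa5 stood there at 0.99 and 0.23, and in SCS against naive Hmox1, Cat and Hspa5 at 1.24, 0.30 and 0.23. With no filter on low counts Hmox1 stood at 0.99 in SCS against sham. The cause was not tested for any of these. In SCS against naive the exact permutation test cannot go below p = 0.1, which Hmox1, Cat and Hspa5 reached (differences in log2 CPM 1.14, 0.29 and 0.21). Sod1, which was not called, reached it too, at a difference of -0.12. Any gene whose SCS and naive libraries do not overlap reaches this p, and 36.3% of all tested genes showed no overlap. Thinning every library to 11243288 counts, chosen after the data were seen, left the calls of all 5 genes as they were; Hspa5 in sham against naive moved to 0.011. Median-ratio and upper-quartile scaling, DESeq2 and limma-voom changed no call of the 5 genes.

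A replicate block gave 5 changed genes in SCS against sham, 672 in SCS against naive and 9 in sham against naive, and 0 of the 5 genes passed. Log2 fold changes under the block were 0.92 for Hmox1 and 0.20 for Hspa5 in SCS against sham (adjusted p 0.227 and 0.187), 1.13, 0.33 and 0.24 for Hmox1, Cat and Hspa5 in SCS against naive (0.123, 0.0594 and 0.105), and 0.032 for Hspa5 in sham against naive. Deviations from the group means correlated at -0.17 to 0.13 between libraries with the same number, so no pairing was assumed, and the block left 4 residual degrees of freedom in place of 8. Over the 11 libraries, in which the SCS group lies apart, r of Hmox1 and Hspa5 was 0.82 (permutation adjusted p = 0.0472), but Spearman's rho was 0.53 (permutation adjusted p = 0.172). That r was 0.47 without SCS 2 and SCS 5, 0.41 as deviations from the group means and -0.22 in the 8 sham and naive libraries, a subset chosen after the data were seen, so it rests on the SCS libraries. The planned settings for pathway lists were not run, since 0 IDs matched a symbol. At 173 to 794 counts per library, counting error was larger for Hmox1 (3.55% to 7.60% of a value) than for the other genes. It stayed below the spread of Hmox1 in each group.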
